A study of Mus musculus with 7 samples.

Results

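The ovarian pathway genes described here are 10 genes that mark or direct the granulosa cell lineage: *Foxl2*, *Wnt4*, *Rspo1*, *Lgr5*, *Bmp2*, *Irx3*, *Irx5*, *Esr2*, *Ctnnb1* and *Axin2*. They were chosen by symbol, and all 10 were found among the 24739 genes of the RefSeq table. RNA-Seq had been carried out on whole testes of C57BL/6 mouse embryos at E14.5 (embryonic day 14.5), with 1 pair of testes per library. There were 3 libraries labelled wild-type (WT1, WT2 and WT3) and 4 labelled mutant, from embryos homozygous for the global *Glis3*zf5 allele, in which exon 4 of *Glis3* and parts of its flanking introns are deleted. GLIS3 is a zinc finger transcription factor, and this deletion disrupts its binding to DNA in every cell type of the embryo, not in the testis alone. No other allele or treatment was given for either group. The comparison asks how the genes of the ovarian program stood in XY gonads that lacked GLIS3 function.

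In the XX gonad, R-spondin 1 and WNT4 stabilise beta-catenin, which drives granulosa cell fate and opposes the Sertoli cell factor SOX9. FOXL2, a forkhead transcription factor, then maintains granulosa identity, together with BMP signals and, later, with estrogen receptors. In the fetal testis SOX9 and AMH are on and this program is held down, although several of its signalling genes are also used by Sertoli, interstitial and coelomic epithelial cells.

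Of the 10 genes, *Esr2*, the gene for estrogen receptor beta, was the only one whose FPKM in every mutant library lay above that in every library labelled wild-type. Over all 13988 genes tested, 7.31% had every mutant library above every library labelled wild-type and 7.59% had every one below. FPKM counts the fragments of a gene, scaled to the length of its transcript and to the size of the library. The mean *Esr2* level was 1.39 times as high in the mutant group, at 2.22 ± 0.150 FPKM (SD, n = 4) against 1.60 ± 0.190 FPKM (SD, n = 3). None of the 10 genes passed the threshold across all genes tested. *Foxl2*, which defines granulosa cells, stayed below 0.1 FPKM in all 7 libraries. The Wnt pathway members *Rspo1*, *Wnt4*, *Axin2*, *Lgr5* and *Ctnnb1* had groups that overlapped.

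**Figure D1:**
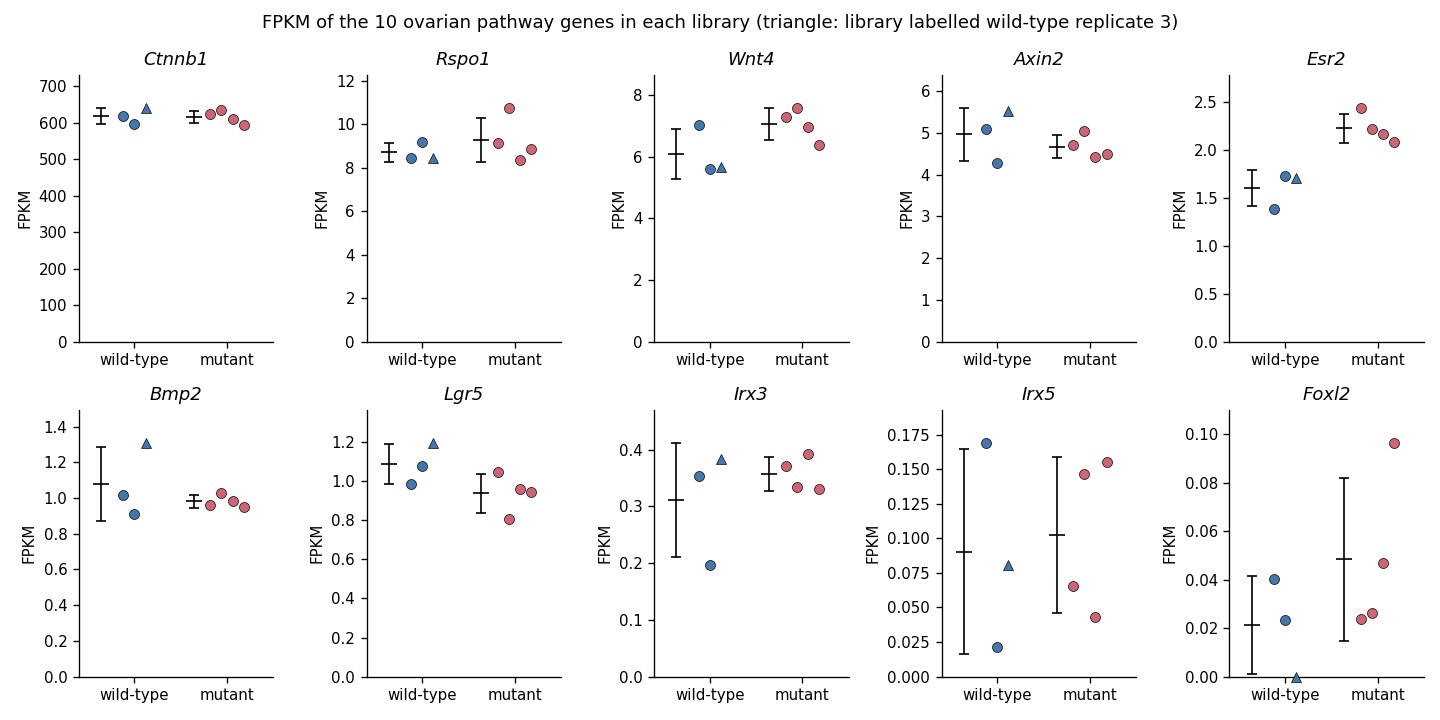
FPKM (vertical axes, each from 0) of the 10 genes in the wild-type (blue) and mutant (red) libraries, 1 point per library, with the library labelled WT3 as a triangle; the horizontal mark is the group mean and the bar its SD (n = 3 and n = 4). *Esr2* is the only one of the 10 whose groups do not overlap, where 7.31% of all genes tested lie apart with the mutants above and 7.59% with the mutants below, and *Foxl2* stays between 0 and 0.0964 FPKM.

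As a check of the labels, the FPKM of *Glis3* was 7.63 and 6.89 in WT1 and WT2, but 2.91 in the library labelled WT3, which lay within the mutant range of 2.66 to 3.86. The deleted exon is only a part of the transcript over which FPKM is taken. The log2 fold change of *Glis3* was -0.69 (adjusted p = 0.268 with limma). The retrotransposon reads inside *Glis3* belong to the second readout used below. Scaled to library size, they were 188, 148 and 109 CPM in WT1, WT2 and the library labelled WT3 and 61.8 to 88.4 CPM in the mutant libraries. FPKM thus goes against the label of the library labelled WT3. Its repeat reads lay above the mutant range, but nearer to that range than to WT2. These values do not settle its label, and the main results are also given without it. The log2 fold change of the repeat reads inside *Glis3* was -0.89 (adjusted p = 0.0983 with edgeR). Without the library labelled WT3 it was -1.07 (adjusted p = 0.0025 with edgeR). *Sox9* was between 5.84 and 8.65 FPKM in the 7 libraries and *Amh* between 99.8 and 200.1 FPKM, so both Sertoli cell genes were present throughout. *Ddx3y*, on the Y chromosome, lay between 42.2 and 48.7 FPKM, while *Xist* did not exceed 0.120 FPKM and *Sry*, whose peak comes before this stage, did not exceed 0.0292 FPKM. The number of fragments behind an FPKM value is not recorded, and the steps between the lowest values gave the other 6 libraries depths of 0.775 to 0.929 of that of WT1. The table of retrotransposon reads, used below as a second readout, held 3454317 to 4670830 reads per library.

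Genes were tested with limma on log2(FPKM + 0.5), a scale that understates the change of low genes, wherever the mean over the 7 libraries was at least 0.5 FPKM. Of the 13988 genes tested, 0.00715% were past an adjusted p of 0.05, which was 1 gene, and 17% had an unadjusted p under 0.05. Among the ovarian pathway genes, 7 were tested and 3 (*Irx3*, *Irx5* and *Foxl2*) were under the filter. Of the 7, 0 passed the threshold with limma and 1 (*Esr2*) had an unadjusted p under 0.05. The same counts, 0 and 1, were obtained without the library labelled WT3, when 720 of all genes passed. The log2 fold change was above 0 in 3 of the tested members and below 0 in 4, with a median of -0.0054 against 0.0084 over all genes tested. In whole testes, fewer cells of a type and less RNA per cell cannot be told apart.

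The 10 genes spanned a wide range of levels. *Ctnnb1* had a mean of 617 FPKM over the 7 libraries, far above *Rspo1* (9.03), *Wnt4* (6.64), *Axin2* (4.80) and *Esr2* (1.96). *Bmp2* (1.02 FPKM) and *Lgr5* (1.004 FPKM) followed, and their ranges over the libraries overlapped. *Irx3* (0.337 FPKM) lay above *Irx5* (0.0973 FPKM) and *Foxl2* (0.0367 FPKM), which also overlapped. Every other pair of neighbours in this order had ranges that did not overlap.

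*Wnt4* encodes the secreted ligand that holds back testis vasculature and steroidogenic cells in the ovary and is also made by other somatic cells of the gonad. It lies on the plus strand of chromosome 4 of mm10, from 137277635 to 137299501, and no other annotated gene overlaps it. Its FPKM was 7.02 and 5.60 in WT1 and WT2 and 5.66 in the library labelled WT3, against 7.30, 7.58, 6.97 and 6.39 in mutant replicates 1 to 4. The library of WT1 lay inside the mutant range, and the other two libraries labelled wild-type lay below it. Between the groups the log2 fold change was 0.20 with a 95% interval from -0.03 to 0.43 (adjusted p = 0.352 with limma, and exact permutation p = 0.143). The interval included 0, and it also included the 0.38 estimated for *Esr2* below.

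*Rspo1*, on the plus strand of chromosome 4 from 124986430 to 125009099, encodes the R-spondin that prolongs Wnt signalling by removing the ligases that clear its receptors. Its FPKM was 8.46, 9.19 and 8.43 in the WT-labelled libraries and 9.12, 10.7, 8.37 and 8.87 in the mutant libraries. Mutant replicate 2 was the highest and mutant replicate 3 the lowest of the 7, so the mutant group enclosed the other. This gave a log2 fold change of 0.08 (95% interval -0.13 to 0.30, adjusted p = 0.682 with limma). The antisense gene *Gm12930* overlaps *Rspo1*, and because strand was not kept in these libraries, reads of both cannot be told apart.

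*Lgr5*, on the minus strand of chromosome 10 from 115450314 to 115587780, encodes a receptor for R-spondins that marks cells of the ovarian surface and cortex. Its FPKM was 0.989, 1.08 and 1.20 in the WT-labelled libraries and 1.05, 0.807, 0.961 and 0.945 in the mutant libraries. Mutant replicate 1 lay among the wild-type values, and the 3 other mutant libraries lay below all of them. With a log2 fold change of -0.14 (95% interval -0.41 to 0.12), the adjusted p was 0.564 with limma, and without the library labelled WT3 the log2 fold change was -0.094. The paralog *Lgr4*, which is listed with the receptors below, had a mean of 56.7 FPKM over the 7 libraries. The antisense transcript *A930009A15Rik* overlaps *Lgr5*.

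*Ctnnb1* encodes beta-catenin, which carries the Wnt signal to the nucleus and is also part of cell junctions in all epithelia. It lies on the plus strand of chromosome 9, from 120933400 to 120960507, where *Ulk4* and *4930593C16Rik* lie on the other strand. Its FPKM reached from 598 to 640 in the WT-labelled libraries and from 595 to 634 in the mutant libraries. These ranges nearly coincide. Its log2 fold change was -0.0054 with a 95% interval of -0.16 to 0.15 (adjusted p = 0.977 with limma), the narrowest interval of the tested members. This is a level of mRNA, and the activity of beta-catenin is set on the protein.

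*Axin2*, on the plus strand of chromosome 11 from 108920349 to 108950781, is both a target of beta-catenin and a scaffold of the complex that degrades it, and its mRNA is often used as a readout of Wnt signalling. Its FPKM was 5.10 and 4.28 in WT1 and WT2, 5.52 in the library labelled WT3, and 4.71, 5.04, 4.43 and 4.51 in the mutant libraries. The mutant values lay inside the wild-type range. Here the log2 fold change was -0.07 (95% interval -0.30 to 0.15, adjusted p = 0.737 with limma), and -0.0021 without the library labelled WT3. The antisense gene *Gm11670* overlaps *Axin2*.

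*Bmp2* encodes a ligand of the TGF-beta superfamily that acts with FOXL2 on *Fst* in the fetal ovary. The gene is on the plus strand of chromosome 2 from 133552159 to 133562896. Its FPKM was 1.02 and 0.909 in WT1 and WT2, 1.31 in the library labelled WT3, and 0.961, 1.03, 0.984 and 0.951 in the mutant libraries. The library labelled wild-type replicate 3 was the highest and WT2 the lowest. Its log2 fold change of -0.08 (95% interval -0.37 to 0.20, adjusted p = 0.761 with limma) became 0.018 without the library labelled WT3. That library was also the highest of the 7 for *Ctnnb1*, *Axin2* and *Lgr5*.

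**Figure D2:**
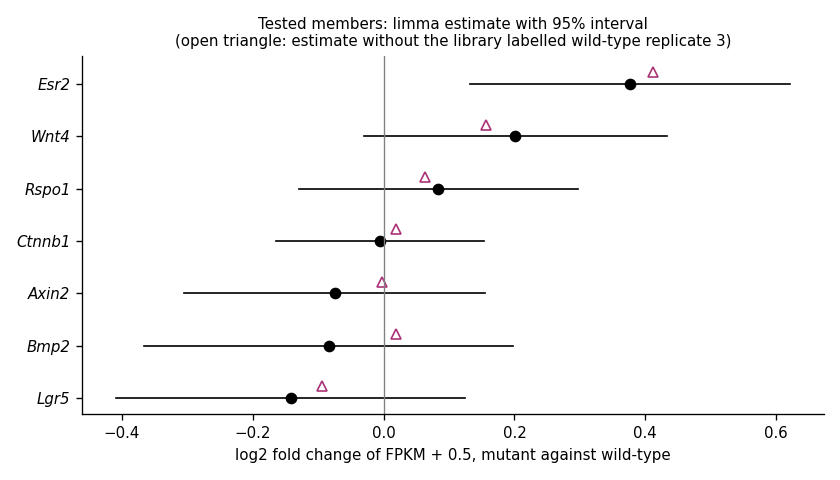
The log2 fold change of FPKM + 0.5 (horizontal axis, mutant against wild-type) of the 7 tested members, with points for the limma estimate, lines for its 95% interval and open triangles for the estimate without the library labelled WT3. The interval of *Esr2*, from 0.13 to 0.62, is the only one that does not include 0, before adjustment over all genes.

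The transcription factor genes of the granulosa lineage were the lowest members. *Foxl2* is a gene with a single coding exon on the plus strand of chromosome 9 from 98955607 to 98958126, and the antisense RNA *Foxl2os* overlaps it, so that reads of both cannot be told apart. It was listed at 0.0403 and 0.0235 FPKM in WT1 and WT2, at 0 in the library labelled WT3, and at 0.0237, 0.0263, 0.0469 and 0.0964 FPKM in mutant replicates 1 to 4. Mutant replicate 4 was the highest, and the groups overlapped. At these levels a difference between groups was not detectable for *Foxl2* (exact permutation p = 0.314).

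*Irx3* and *Irx5* encode Iroquois homeodomain factors that lie in 1 cluster on chromosome 8 and are expressed in somatic cells of the fetal ovary. *Irx3* is on the minus strand from 91798511 to 91801654. It had 0.354 and 0.197 FPKM in WT1 and WT2, 0.383 FPKM in the library labelled WT3 and 0.330 to 0.392 FPKM in the mutant libraries, of which replicate 3 was the highest. The groups overlapped (exact permutation p = 0.543), and *Irx3os* on the other strand shares part of the locus. *Irx5*, on the plus strand from 92357796 to 92361456, had 0.169, 0.0216 and 0.0803 FPKM in the WT-labelled libraries and 0.0658, 0.146, 0.0433 and 0.155 FPKM in the mutant libraries (exact permutation p = 0.8286). Its highest and its lowest value were both in libraries labelled wild-type. None of the 4 other Iroquois genes, *Irx1*, *Irx2*, *Irx4* and *Irx6*, reached the filter either, and their summed FPKM was 0.154 to 0.423 in the WT-labelled libraries and 0.200 to 0.458 in the mutant libraries.

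*Esr2* is on the minus strand of chromosome 12, from 76120419 to 76177259, and encodes the estrogen receptor that predominates in granulosa cells of the adult ovary. The predicted gene *Gm7862* lies inside it on the same strand. Its FPKM was 1.38 and 1.72 in WT1 and WT2, 1.70 in the library labelled WT3, and 2.43, 2.22, 2.17 and 2.08 in mutant replicates 1 to 4. Thus 4 of 4 mutant libraries lay above the highest wild-type value. The log2 fold change was 0.38 (standard error 0.11, 95% interval 0.13 to 0.62, unadjusted p = 0.00726), and the adjusted p was 0.186 with limma, between 0.0954 and 0.404 over the alternatives. By its unadjusted p, *Esr2* was at rank 542 of 13988, and 8.21% of genes were higher and 8.79% lower at an unadjusted p under 0.05. Without the library labelled WT3 the log2 fold change was 0.41 (adjusted p = 0.0954 with limma).

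Reads that the authors had counted at retrotransposon loci gave a second view of the gene bodies in the same 7 libraries. These counts were summed over the LINE, SINE and LTR loci that lie wholly inside a gene and tested with edgeR for the 15612 genes whose mean was 10 reads or more. Across these genes, 0.0128% were past an adjusted p of 0.05 and 12.3% had an unadjusted p under 0.05. Inside *Esr2*, 54 loci held 29, 23 and 32 reads in the WT-labelled libraries and 52, 34, 35 and 34 reads in the mutant libraries. Scaled to CPM (reads scaled to the TMM-normalized library size), this was 6.48 ± 0.878 (SD, n = 3) against 10.5 ± 2.22 (SD, n = 4), and again every mutant library lay above every wild-type library. The share of the 15612 genes whose repeat reads lay apart in this way was not computed. For these reads the log2 fold change was 0.69, with an unadjusted p of 0.00987 and an adjusted p of 0.263 with edgeR, between 0.191 and 0.591 over the alternatives. These are the same libraries as for FPKM and thus no second set of replicates.

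Of these reads, 37.2% were at 3 loci that overlap an exon of *Esr2*, where mature and unspliced transcripts cannot be told apart. The largest was an ORR1B1 element, an LTR fragment of the last exon at chr12:76120460-76120762 of mm10, with 5, 6 and 9 reads in the WT-labelled libraries and 16, 16, 8 and 10 reads in the mutant libraries. Mutant replicate 3 lay among the wild-type counts there. At the loci outside of exons the CPM was 4.26 ± 0.460 (SD, n = 3) and 6.34 ± 1.54 (SD, n = 4), and the groups overlapped (exact permutation p = 0.0857). Reads outside of exons can come from unspliced transcripts.

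For the other members the repeat reads gave no separation. Fold changes on the log2 scale were 0.10 for *Axin2* (445 reads in all), 0.08 for *Wnt4* (392 reads) and 0.08 for *Lgr5* (273 reads), with adjusted p-values of 0.873, 0.908 and 0.933 with edgeR. *Ctnnb1* had 36523 reads, of which 92.2% were at a single MIR3 element in an exon, and a log2 fold change of 0.08 (adjusted p = 0.758 with edgeR). *Rspo1*, *Bmp2* and *Irx5* were under the minimum with 55, 15 and 3 reads in all, and *Foxl2* and *Irx3* held no locus with reads. For *Lgr5* and *Wnt4* the sign of this value depended on which libraries were used.

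**Figure D3:**
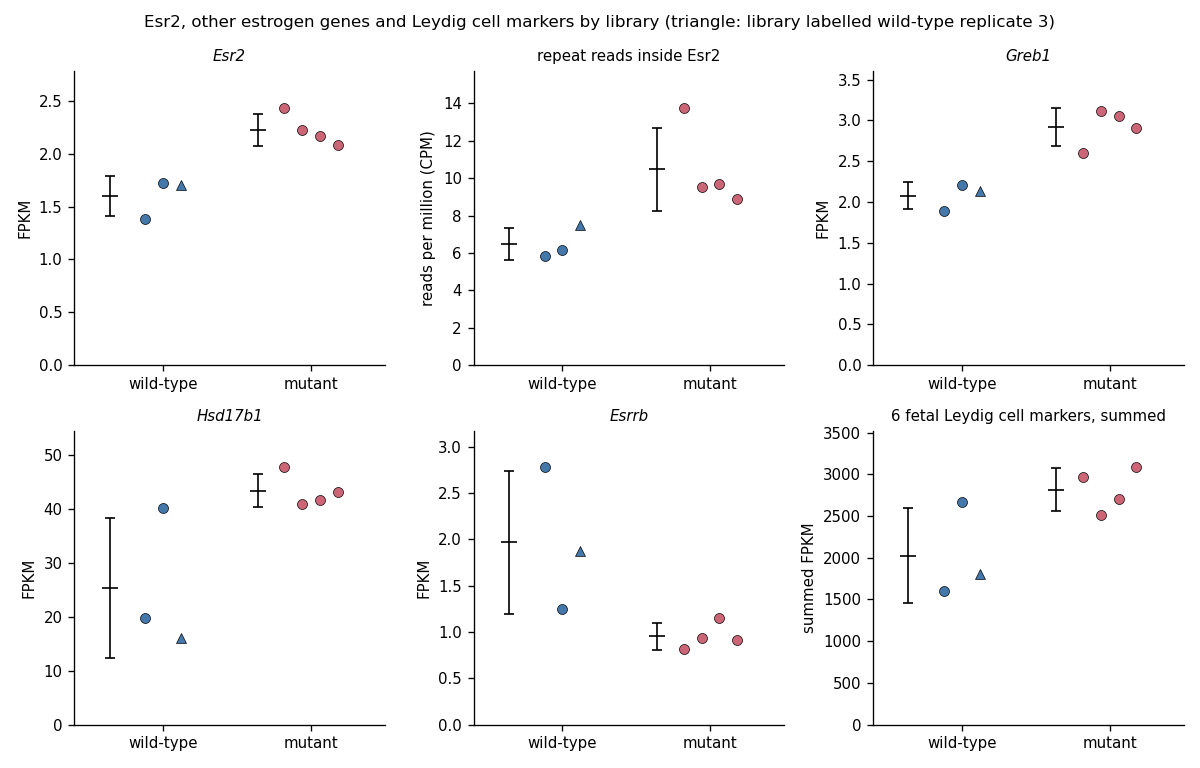
*Esr2*, the repeat reads inside it, *Greb1*, *Hsd17b1*, *Esrrb* and the sum of 6 fetal Leydig cell markers in each library (vertical axes from 0, in FPKM or CPM), with marks for the mean and bars for the SD (n = 3 and n = 4). The mutant libraries lie above those labelled wild-type for the first 4 quantities and below them for *Esrrb*, while for the Leydig cell markers WT2, at 2667, lies among the mutant libraries. For FPKM, over all genes tested, 7.31% lie apart with the mutants above and 7.59% with the mutants below. These shares were not computed for repeat reads. *Hsd17b1* was named after its values were seen, and *Esr1*, whose groups overlap, is not shown.

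Other genes of estrogen signalling were read beside *Esr2*. Of the 9 in the list, 7 were tested and 0 were past the threshold with limma. At an unadjusted p under 0.05, 2 were higher and 1 lower, or 42.9% against 17% of all genes tested. The median log2 fold change was 0.14, or 0.069 without the library labelled WT3. *Greb1*, a gene induced by estrogen receptors in breast cells, had 1.89, 2.21 and 2.14 FPKM in the WT-labelled libraries and 2.60, 3.12, 3.06 and 2.90 FPKM in the mutant libraries, which did not overlap (log2 fold change 0.41, adjusted p = 0.170 with limma). *Esrrb*, an orphan receptor that is known from pluripotent and germ cells and binds no estrogen, went the other way, with 2.78, 1.25 and 1.88 FPKM against 0.812, 0.936, 1.15 and 0.908 FPKM (log2 fold change -0.72, adjusted p = 0.186 with limma). *Hsd17b1*, whose enzyme reduces estrone to estradiol, is named after its values were seen. It had 19.8, 40.2 and 16.0 FPKM in the WT-labelled libraries and 41.0 to 47.7 FPKM in the mutant libraries (log2 fold change 0.87, adjusted p = 0.193 with limma). Without WT2, the one nearest to the mutants, *Hsd17b1* passed the threshold with a log2 fold change of 1.26 (adjusted p = 0.0178 with limma). In that setting 5 of all genes tested passed. *Esr1*, the gene for estrogen receptor alpha and the paralog of *Esr2*, had 4.13, 5.11 and 3.47 FPKM against 4.45 to 5.11 FPKM, and its groups overlapped (log2 fold change 0.19, adjusted p = 0.460 with limma).

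Markers of other cells moved with the groups and are given beside *Esr2*. The summed FPKM of the 6 fetal Leydig cell markers was 1602, 2667 and 1802 in the WT-labelled libraries and 2507 to 3083 in the mutant libraries, with 6 of 6 fold changes above 0, and *Cyp11a1* and *Cyp17a1* had log2 fold changes of 0.55 and 0.47 (adjusted p = 0.186 and 0.285 with limma). Wild-type replicate 2 lay within the mutant range for this sum. The 8 germ cell markers summed to 1400, 1105 and 594 FPKM and to 481 to 654 FPKM, with all 8 fold changes below 0 and log2 fold changes of -1.08 for *Ddx4* and -0.86 for *Dazl* (adjusted p = 0.136 and 0.139 with limma). Without the library labelled WT3 both were past the threshold (adjusted p = 0.00388 and 0.0125 with limma), among 720 of all 13988 genes tested that passed. For the germ cell sum the library labelled WT3 lay within the mutant range. This list holds *Ddx4*, *Mael* and *Nanos2*, which the paper reports as reduced in the mutants, with germ cell counts at E14.5 that were not different. Fewer germ cells and less RNA per germ cell cannot be told apart in the sum. The sum of the 11 Sertoli cell markers was 986 to 1187 FPKM against 1175 to 1288 FPKM, with 9 of 11 fold changes above 0 and a median log2 fold change of 0.16. The part of Leydig, germ and Sertoli cell RNA in the *Esr2* result was not tested.

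Values of the other marker lists follow. The 10 mesonephric markers, of which 4 passed the filter, summed to 16.5 to 21.4 FPKM and 14.5 to 21.7 FPKM. *Pax2* was at or below 0.0163 FPKM and *Pax8* at 0.559 to 1.01 FPKM. This list also holds *Krt19*, listed again for coelomic epithelium, and *Ret* and *Lhx1*, which the paper names as genes of undifferentiated spermatogonia. The sum thus cannot be assigned to tissue left at the dissection. Coelomic epithelium markers, among them *Upk3b* and *Msln*, summed to 66.8 to 82.0 FPKM in the WT-labelled libraries and 65.1 to 80.8 FPKM in the mutant libraries. Interstitial markers such as *Nr2f2* and *Pdgfra* summed to 312 to 339 FPKM and 311 to 399 FPKM. Endothelial markers, with *Pecam1* and *Cdh5*, summed to 61.1 to 74.6 FPKM and 65.5 to 68.8 FPKM. The 4 measured macrophage markers, with *Csf1r* first among them, summed to 10.95 to 11.61 FPKM and 11.64 to 13.4 FPKM, with no overlap and with all 4 fold changes above 0. No marker in these lists was past the threshold with limma.

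The rest of the Wnt, BMP and fetal ovary genes gave no further call. Over 8 lists with 124 genes, 96 were tested and 0 were past the threshold with limma, while 5 were higher and 4 lower at an unadjusted p under 0.05, or 9.38% against 17% of all genes. Their median log2 fold change was 0.016. Without the library labelled WT3 there were 2 calls, the BMP targets *Id1* and *Id3*, both named after their values were seen. In that setting 720 of all 13988 genes tested passed. Without WT2 there was 1 call, *Hsd17b1*, when 5 of all genes passed.

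Among 16 other somatic genes of the fetal ovary, 11 were tested. At an unadjusted p under 0.05, 2 were higher and 0 lower, or 18.2% against 17% of all genes tested. The median log2 fold change was 0.16. That median was 0.015 without WT1, -0.023 without WT2 and 0.0022 without the filter. The 2 genes were *Fst*, the follistatin gene that WNT4, BMP2 and FOXL2 turn on in the ovary, and *Cdkn1b*, an inhibitor of the cell cycle in granulosa precursors. *Fst* had 1.18, 1.07 and 0.594 FPKM in the WT-labelled libraries and 1.86, 1.90, 1.13 and 1.32 FPKM in the mutant libraries (log2 fold change 0.50, adjusted p = 0.263 with limma), and mutant replicate 3 lay below WT1. *Cdkn1b* had 33.0 to 37.2 FPKM against 37.2 to 52.2 FPKM, with no overlap of the groups (log2 fold change 0.33, adjusted p = 0.275 with limma). Without the library labelled WT3 neither had an unadjusted p under 0.05, and the log2 fold changes were 0.31 for *Fst* and 0.29 for *Cdkn1b* (unadjusted p = 0.134 and 0.108 with limma). *Cyp19a1*, the aromatase gene of granulosa cells, was under the filter, between 0 and 0.110 FPKM in the 7 libraries.

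The Wnt pathway around *Wnt4*, *Rspo1* and *Axin2* was read list by list. Of 21 Wnt ligands and R-spondins, 9 were tested, with a median of -0.08. *Wnt3* had 5.97 FPKM in WT1 but 2.87 and 3.14 FPKM in the other two WT-labelled libraries, and the mutant libraries had 1.52 to 3.12 FPKM. This came to a log2 fold change of -0.61 (adjusted p = 0.289 with limma), or -0.31 without WT1. *Wnt6*, at 54.1 to 87.2 FPKM a far more abundant ligand than *Wnt4*, had a log2 fold change of 0.26 (adjusted p = 0.300 with limma), and 0.12 without WT2. Of 19 receptors, 17 were tested, 0 had an unadjusted p under 0.05, and the median was 0.03; the smallest p-values belonged to *Fzd4* at -0.14 and *Ror2* at 0.19 (adjusted p = 0.518 and 0.565 with limma). All 18 genes of the destruction complex and nuclear partners of beta-catenin were tested, with a median of -0.03. *Tcf7*, a nuclear partner of beta-catenin, had 2.80 to 3.68 FPKM in the WT-labelled libraries and 2.37 to 2.58 FPKM in the mutant libraries, which did not overlap (log2 fold change -0.32, adjusted p = 0.206 with limma). *Dvl2*, a scaffold below the receptors, had a log2 fold change of -0.17 (adjusted p = 0.346 with limma).

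Of 17 Wnt feedback targets and inhibitors, 16 were tested, with a median of 0.0043. At an unadjusted p under 0.05, 1 was higher and 1 lower, or 12.5% against 17% of all genes tested. *Wif1*, a secreted inhibitor that binds Wnt ligands, had 1.67, 1.34 and 1.34 FPKM in the WT-labelled libraries and 0.665, 0.907, 1.001 and 0.979 FPKM in the mutant libraries. All 4 mutant values lay below the wild-type values (log2 fold change -0.49, adjusted p = 0.180 with limma). *Dkk3*, a Dickkopf family member, had a log2 fold change of 0.25 (adjusted p = 0.260 with limma).

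The 22 BMP ligands, receptors and targets listed beside *Bmp2* included 20 that were tested, with 0 at an unadjusted p under 0.05 and a median of 0.09. *Bmp6* and *Smad1*, a ligand and the messenger of its receptors, had log2 fold changes of 0.28 and 0.18 (adjusted p = 0.319 and 0.329 with limma). *Id1* had 71.2 and 70.2 FPKM in WT1 and WT2, 100.2 FPKM in the library labelled WT3 and 86.6 to 97.2 FPKM in the mutant libraries. *Id3* had 149, 146 and 239 FPKM and 190 to 204 FPKM in the same order. In both, the library labelled WT3 was the highest of all, as it was for *Bmp2*. Without it the log2 fold changes were 0.38 and 0.41 (adjusted p = 0.0230 and 0.0144 with limma), and 720 of all 13988 genes tested passed.

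**Figure D4:**
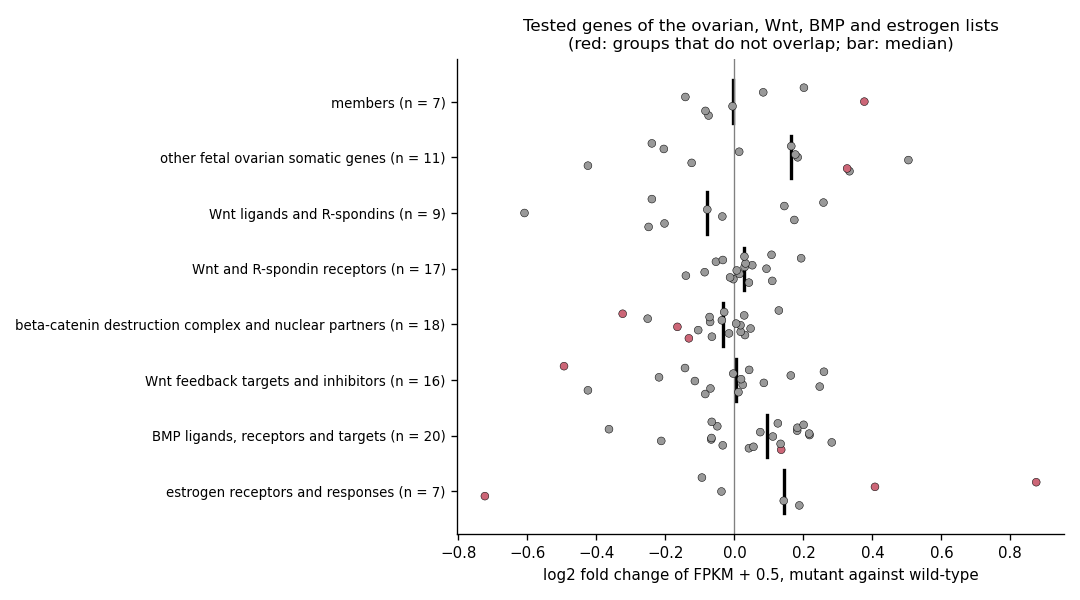
The log2 fold change of FPKM + 0.5 (horizontal axis, mutant against wild-type) of each tested gene, by list, with a black bar at each list's median and red points for genes whose groups do not overlap. None of the points is past the threshold with limma, and the estrogen list holds both the highest value, *Hsd17b1* at 0.87, and the lowest, *Esrrb* at -0.72.

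Promoter sequences of RefSeq for GRCm38.p6, reaching from 250 bases before a start to 50 bases after it, were found for 7 members (8 starts, since *Ctnnb1* has 2). Those of *Esr2* and *Wnt4* are shown because these genes had the largest log2 fold changes among the members and because the promoters differ in base composition. Capitals mark CG dinucleotides.
*Esr2* promoter, chr12:76177210-76177509, minus strand: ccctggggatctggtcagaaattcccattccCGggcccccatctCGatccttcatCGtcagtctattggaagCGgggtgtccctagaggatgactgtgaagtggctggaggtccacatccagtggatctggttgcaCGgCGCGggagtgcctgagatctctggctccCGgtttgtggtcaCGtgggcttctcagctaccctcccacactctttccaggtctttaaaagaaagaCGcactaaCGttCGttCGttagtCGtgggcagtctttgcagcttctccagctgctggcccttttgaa
*Wnt4* promoter, chr4:137277385-137277684, plus strand: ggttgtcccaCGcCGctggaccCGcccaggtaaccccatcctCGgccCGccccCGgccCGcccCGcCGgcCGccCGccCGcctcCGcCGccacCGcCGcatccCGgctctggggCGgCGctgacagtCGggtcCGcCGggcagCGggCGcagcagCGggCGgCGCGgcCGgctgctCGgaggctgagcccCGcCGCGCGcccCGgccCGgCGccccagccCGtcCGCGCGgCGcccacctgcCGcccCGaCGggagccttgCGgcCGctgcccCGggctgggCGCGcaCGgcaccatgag
The *Wnt4* sequence held 51 CG dinucleotides at 84.3% G + C and the *Esr2* sequence 14 at 56.0%, against a median of 7 and of 52.7% over 32851 promoters. That of *Axin2* held 31, *Rspo1* 29, *Foxl2* 27 and *Irx3* 14. The core of TCF/LEF sites, CTTTGA, read on both strands, was in 0 of the 8 member promoters and in 16.0% of all promoters. The core of the GLIS binding site, TGGGGGGT, read in the same way, was in 0 of the 8 and in 1.53% of all. These counts cover only exact matches in windows of 300 bases.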

How the data were processed

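RNA-Seq of E14.5 testes, 3 libraries labelled wild-type and 4 mutant, was analysed with groups and replicate numbers from the labels. The authors aligned the reads to mm10 with TopHat2 2.0.12, without strand, and deposited FPKM per RefSeq gene from Cuffnorm. The authors also deposited unnormalized counts of uniquely mapped reads per LINE, SINE and LTR locus, from HTSeq. In both headers a missing separator joins the names of wild-type replicate 3 and mutant replicate 1; these were read in the order written, and the 7 names match the 7 columns in number, all of which were used.

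FPKM was tested on log2(FPKM + 0.5) with limma 3.58.1 (trend) in R 4.3.3, for means of at least 0.5 FPKM, two-sided, with Benjamini-Hochberg adjustment over all tested genes and a threshold of 0.05. Counts of loci wholly inside a GENCODE M21 gene (bedtools 2.31.1) were summed per gene and tested by quasi-likelihood in edgeR 4.0.16 (TMM; library sizes from the whole repeat table; mean of at least 10 reads). DESeq2 1.42.0 was an alternative. Exact permutation tests, two-sided, used all 35 assignments of 3 and 4 labels and cannot go below 0.0286. The relative depth was estimated from steps between low FPKM values in Python 3.11.15. Both tests were checked on simulated data with 200 changed genes. Of log2 changes of 0.5, limma recovered 40.5% and edgeR 12.5%. Of log2 changes of 1, they recovered 83% and 74%. Changes smaller than 0.5 were not simulated. Differential testing from aligned reads was not run here.

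The members, the 8 pathway and 8 marker lists and the tests were chosen with earlier results of these data known. Genes named were all members, in each pathway list the calls or else the 2 smallest p-values, the first 2 of each marker list, *Glis3*, *Xist*, *Sry* and *Ddx3y*; others are said to be named after their values were seen or are paralogs and known markers of the members' cell types.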

Additional observations from a re-analysis of the deposited data

Results flagged for a closer look

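Among 18 sets of 4 mutant values checked, 2 held a library that stood apart from the other 3. The cutoff gives about 1 in 20 for normally distributed values. That rate does not hold for sets of few reads, such as that of *Irx5* below, where 1 read is enough to set a library apart. The repeat reads inside *Esr2* came to 13.8 CPM in mutant replicate 1, against 8.91 to 9.69 CPM in the other mutant libraries. At an L1MEc element outside of exons, 46881 bases from the start of *Esr2*, that library had 7 reads and the other libraries at most 1. It was also the highest library for *Esr2* FPKM, at 2.43. Without it the log2 fold change of the repeat reads was 0.53 (adjusted p = 0.522 with edgeR).

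The repeat reads inside the GENCODE span of *Irx5*, which ends at 92376286, beyond the RefSeq gene that ends at 92361456, came to 0.277 CPM in mutant replicate 3 and to 0 in the other mutant libraries, which is a difference of 1 read.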

How the results depend on the processing

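Over all alternatives, 0 members passed the threshold in either test, and the fold changes of *Esr2* were above 0 in each that kept the gene (it was under the filters of at least 2 FPKM and at least 50 reads). The log2 fold change of *Bmp2* was -0.16 to 0.018 with 1 library left out. That of *Ctnnb1* was -0.030 to 0.020 with 1 library left out, 0.0067 with centring on the median and 0.012 with the replicate block. With quantile normalization *Ctnnb1* moved furthest, to -0.16 (adjusted p = 0.281 with limma). For repeat reads, *Wnt4* was -0.020 to 0.15 and *Lgr5* -0.076 to 0.19 with 1 library left out, and *Lgr5* -0.082 with the replicate block. The cause was not tested.

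Of all tested genes, 1 passed the threshold, 4 without the filter, 3 with quantile normalization, 0 with the replicate block (1726 at an unadjusted p under 0.05) and 1 to 720 with 1 library left out, 720 being without the library labelled WT3, 5 without WT2, and 2 without WT1 or mutant replicate 3. For the pathway lists these ranged from 0 to 2. In the repeat reads, 2 genes passed, 53 with DESeq2, 8 with library size only, 324 without the filter, 1 with at least 50 reads, 22 outside of exons, 0 with the replicate block (1374 at an unadjusted p under 0.05) and 0 to 199 with 1 library left out, 199 without the library labelled WT3, 24 without WT2 and 0 without any other. Whether same-numbered libraries share a litter or a batch is not given. Their deviations from the group means correlated at 0.20, -0.18 and 0.23, which cannot settle it. WT1 and the library labelled WT3 correlated best with the mutant replicate of the same number, and WT2 with mutant replicate 1.

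The limits are those of 3 and 4 libraries, and of few reads for *Foxl2*, *Irx5* and the repeat loci. The library labelled WT3 has a *Glis3* FPKM that goes against its label, and *Glis3* repeat reads between those of the mutants and of WT2. Counts of repeat reads are amplified reads without molecular identifiers.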

Other observations

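Across the 7 libraries, some members varied together. The log2(FPKM + 0.5) values of *Bmp2* and *Axin2* had a Pearson r of 0.87, those of *Ctnnb1* and *Axin2* of 0.85, and those of *Bmp2* and *Ctnnb1* of 0.75, and all 3 genes were highest in the library labelled wild-type replicate 3. *Wnt4* and *Lgr5* had an r of -0.74, and *Wnt4* and *Rspo1* of 0.40. *Esr2* had its highest r with *Wnt4*, at 0.46. These are descriptions over 7 points that share library size and composition.

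Among 13987 other genes, the 3 nearest in pattern to *Wnt4* were *Fam102b*, *Rab15* and *Snx20* (r of 0.99, 0.99 and 0.98), to *Rspo1* they were *Purb*, *Zfp945* and *Tmem109* (0.98, 0.97 and 0.97), and to *Axin2* they were *4933417D19Rik*, *Git2* and *Srsf5* (0.99, 0.99 and 0.98). They were picked as the highest of 13987 values over 7 points, so these r cannot tell shared expression from the choice itself.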
